A study of Mus musculus with 8 samples.

Results

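IGHA is the heavy-chain constant gene that gives an antibody its IgA class. It was followed here as 1 of 184 heavy-chain gene rows in the tables of reads per segment. It was also followed as the 1075 of 7166 assembled heavy-chain contigs whose constant gene was listed as IGHA. The row was taken by its exact name and the contigs by their constant-gene assignment. No measured level entered that rule, but it was chosen with earlier results of these data known. RNA came from pro-B cells that were sorted from mouse bone marrow at 8 weeks of age as B220 and Cd43 positive, IgM and CD25 negative cells, with no treatment. The groups were 4 Setd2 knockout samples and 4 control samples. Setd2 encodes a histone H3 methyltransferase. The labels do not say how the deletion was made, what genotype the controls had, or which animal stands behind a replicate number, so p-values measure a spread between samples that may be partly technical. All 8 libraries were poly-A selected, read as single 75-base reads and carried the same sequencing batch.

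A B cell first joins V, D and J segments of the heavy-chain locus and transcribes the joined exon with IGHM, the constant gene of IgM. Later, on activation, class-switch recombination can replace IGHM by a downstream gene such as an IGHG gene or IGHA, and plasma cells that secrete IgA carry very large amounts of the resulting transcript. A rearranged pro-B cell is therefore usually described as an IGHM cell, and switched transcripts are known as markers of later B-lineage cells. The CDR3 is the stretch where V, D and J meet, and its letters mark a clone.

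In an IGHA transcript, the J segment is spliced to the first IGHA exon, which GENCODE M21 places on the minus strand of chromosome 12 (chr12:113259934-113260236, build GRCm38, which is mm10). The deposited row spans chr12:113256204-113260236, the whole gene. The first 32 bases of that exon are shown because they are what an IGHA contig should hold past its J segment, with capitals on the first 17 bases, the length that 513 of 1057 contigs reaching 8 or more bases past J matched exactly. The other lines are ends of IGHA contigs that several CDR3 sequences of the same sample shared, and in them capitals mark every base that differs from the exon.
IGHA exon 1: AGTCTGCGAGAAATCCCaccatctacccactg
knockout 1, 13 CDR3s, IGHJ3: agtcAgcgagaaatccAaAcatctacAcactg
knockout 2, 23 CDR3s, IGHJ4: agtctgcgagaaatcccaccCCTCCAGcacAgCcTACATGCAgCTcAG
knockout 4, 30 CDR3s, IGHJ2: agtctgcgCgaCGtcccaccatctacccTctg
control 1, 55 CDR3s, IGHJ4: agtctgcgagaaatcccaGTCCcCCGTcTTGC
control 2, 105 CDR3s, IGHJ2: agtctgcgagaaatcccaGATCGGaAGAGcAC
control 2, 61 CDR3s, IGHJ3: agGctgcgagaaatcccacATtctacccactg
control 3, 80 CDR3s, IGHJ2: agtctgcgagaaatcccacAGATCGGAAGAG
control 4, 40 CDR3s, IGHJ2: agtctgcgagaaatAccaccatctac

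Heavy-chain locus reads, the only depth the tables give, ran from 12102 to 100600 in knockouts and from 64488 to 89908 in controls. Knockout 3 stood apart before any comparison: it had the fewest locus reads, 92.7% of its constant-region reads were IGHM against at most 67.5% in the other knockouts, and it held 3 IGHA contigs. Differences between the genotypes that it moved most are given with and without it. Setd2 transcript levels were not analysed here. IGHM, the defining constant gene of unswitched cells, was at 55.4% to 92.7% of constant-region reads in knockouts and 41.4% to 48.0% in controls. The 6 switched rows (IGHA, 4 IGHG rows and IGHE) were above 0 in every sample and summed to 6.69% to 44.2% in knockouts and 51.0% to 57.6% in controls. IGKC, the constant gene of the kappa light chain, which is rearranged after the pro-B stage, gave 0.232 to 0.623 reads per heavy-chain read in knockouts and 0.557 to 0.705 in controls. The constant genes of the lambda light chain went the other way. Their rows (IGLC) held 1545, 1199, 867 and 3511 reads in knockouts and 1545, 1865, 1730 and 1276 in controls. Per heavy-chain read, every knockout was above every control in IGLC, and knockout 3, lowest in IGKC, was highest. IGHA thus stood beside light-chain transcripts in all 8 samples, and what part other cells had in its level was not tested. In bulk RNA, fewer cells of a type and less RNA per cell cannot be told apart.

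IGHA reads did not separate the genotypes. The IGHA row held 6273, 4828, 410 and 14662 reads in knockouts 1 to 4 and 8508, 11859, 7640 and 9710 reads in controls 1 to 4. These were 11.5%, 11.7%, 3.39% and 14.6% of heavy-chain locus reads in knockouts, against 9.46%, 13.3%, 11.8% and 12.7% in controls. The lowest and the highest sample were both knockouts, and the other knockouts lay within the control range. Counting error was far smaller than these gaps, since the 95% Wilson interval of the lowest share was 3.08% to 3.73% and that of the highest was 14.4% to 14.8%. Such intervals cover counting error only, since the protocols name no molecular identifiers.

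The mean share was 10.3% ± 4.81 in knockouts and 11.8% ± 1.68 in controls (SD, n = 4 each; two-sided exact permutation p = 0.714, adjusted p = 0.833 over 7 readouts). Without knockout 3 the difference of -1.55 percentage points became 0.746. Of all constant-region reads, IGHA made up 22.2%, 26.1%, 4.02% and 34.1% in knockouts and 17.1%, 33.3%, 27.0% and 32.0% in controls, and here too the groups overlapped. The difference of -5.71 percentage points was 0.159 without knockout 3.

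The quasi-likelihood test of edgeR over all heavy-chain rows gave IGHA a log2 fold change of -0.20 ± 0.53 (SE; knockout over control, adjusted p = 0.822). Of 146 rows tested, 26 were called, all lower in knockouts, which is 17.8%, and none of the 8 constant rows was among them at this threshold of 0.05. At an unadjusted p under 0.05, 51 rows were lower and 1 was higher, or 34.9% and 0.685% of the rows. IGHG1, IGHG2B and IGHG2C were among the lower ones. The 26 became 40 without knockout 2, 7 without control 1, 2 without control 4, and 0 without knockout 3, knockout 4, control 2 or control 3. With any of the last 4 left out, 37 to 46 rows were lower at an unadjusted p under 0.05.

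The sign of the IGHA value depended on the scaling. It was 1.11 with TMM (adjusted p = 0.293) and 1.22 with DESeq2 (adjusted p = 0.0991), where the median of all rows was 0.04 and 0.16, in place of -1.17 with locus totals. Relative to that median, IGHA was higher by 0.97 with locus totals, 1.07 with TMM and 1.06 with DESeq2. TMM called 0 rows and left 13 higher and 17 lower before adjustment, and DESeq2 called 7 higher and 4 lower. IGHM was among those 7 (adjusted p = 0.00465).

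**Figure D1:**
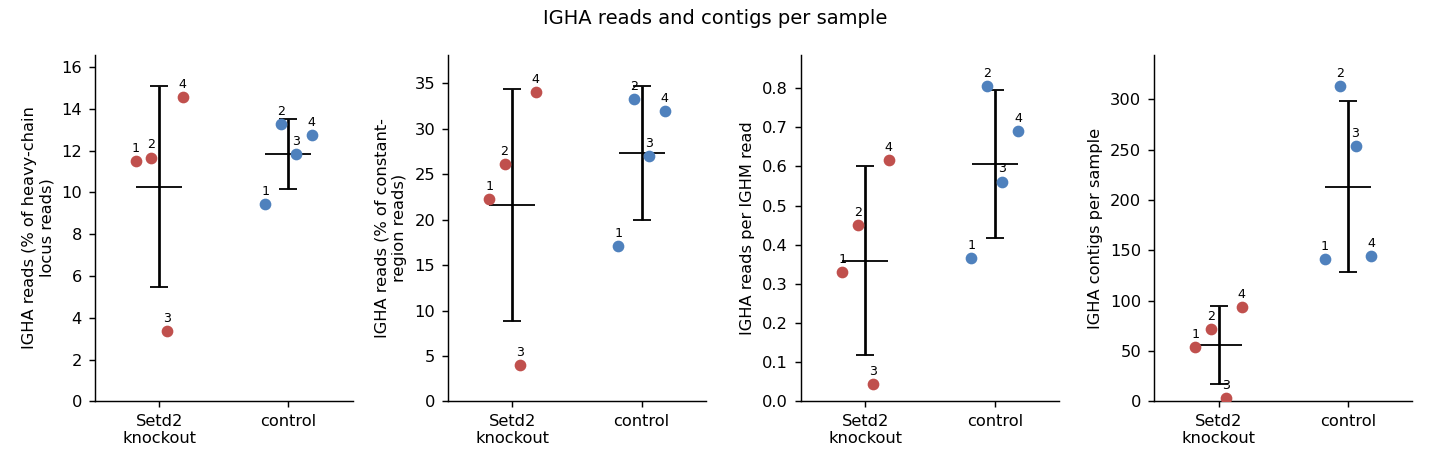
IGHA reads as a percent of heavy-chain locus reads, as a percent of constant-region reads and per IGHM read, and the number of IGHA contigs, with numbered points for the 4 samples of a group, a line at the mean and bars of 1 SD. Knockout 3 is lowest in all 4 panels, the first 3 panels overlap between the groups, and the contig numbers do not.

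Set beside the other constant genes per kilobase of exon, IGHA was second only to IGHM in most samples. It had 4848, 3731, 317 and 11331 reads per kilobase in knockouts and 6575, 9165, 5904 and 7504 in controls. IGHM had 11757, 6642, 5840 and 14724 in knockouts and 14396, 9108, 8413 and 8689 in controls. IGHA was next to IGHM in knockouts 1 to 4 and in controls 3 and 4. In control 2 IGHA lay just above IGHM, and in control 1 IGHG2C, a constant gene of the IgG class, came between them with 7857 reads per kilobase.

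The group means put IGHM, IGHA, IGHG2C and IGHG2B in this order in both groups. IGHA averaged 5057 ± 4605 reads per kilobase in knockouts and 7287 ± 1413 in controls (SD, n = 4 each), and IGHG2C averaged 1144 ± 898 in knockouts and 4307 ± 2370 in controls. IGHM averaged 9741 ± 4232 in knockouts and 10151 ± 2844 in controls. Neighbours in this order lay within the sum of their SDs in both groups, although IGHM was above IGHA in 7 of 8 samples. IGHG1, IGHD and IGHG3 lay lower, and IGHE, the constant gene of IgE, lay lowest with 1 to 3 reads in knockouts and 8 to 25 in controls.

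Neither the ratio of IGHA to IGHM nor that to the IGHG rows differed between the genotypes by a test that passed. There were 0.33, 0.449, 0.0434 and 0.615 IGHA reads per IGHM read in knockouts and 0.365, 0.805, 0.561 and 0.691 in controls, a ratio of geometric means of 0.432 (two-sided exact permutation p = 0.171, adjusted p = 0.4). Without knockout 3 the log2 difference of -1.21 was -0.37. Per IGHG read there were 2.34, 1.75, 1.51 and 3.39 IGHA reads in knockouts and 0.482, 1.37, 1.12 and 1.54 in controls, a ratio of 2.07 (exact permutation p = 0.0571, adjusted p = 0.2). Knockout 3 and control 4 were the only samples whose order crossed the groups. The smallest p that 4 against 4 samples allow is 0.0286.

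The IGHA row was also set against IGKC. There were 0.201, 0.187, 0.146 and 0.234 IGHA reads per IGKC read in knockouts and 0.170, 0.21, 0.188 and 0.181 in controls. Knockout 3, lowest in IGHA, was thus also low in IGKC. No test was run on this ratio.

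By likeness of their share of locus reads to that of IGHA, the top 5 of 75 rows were V genes. They were IGHV1-76 (Pearson r = 0.93, Spearman rho = 0.214), IGHV1-12 (r = 0.925, rho = 0.571), IGHV9-3 (r = 0.83, rho = 0.524), IGHV1-81 (r = 0.83, rho = 0.476) and IGHV1-21 (r = 0.805, rho = 0.381), over 8 samples that share libraries and denominators. IGHV1-81, with 2.49%, 5.92%, 0.397% and 13.4% of locus reads in knockouts and 3.1%, 2.11%, 1.96% and 3.88% in controls, had r = 0.588 without knockout 3 and control 1, the samples farthest from the IGHA median on the log2 scale of these correlations, and r = -0.13 without knockouts 3 and 4, the farthest in percent. For the other 4, r ran from -0.15 to 0.0386 without the first pair of samples and from 0.0449 to 0.593 without the second. The likeness of all 5 rows thus rested on the samples left out.

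The number of IGHA contigs did not overlap between the groups, and neither did that of contigs with no constant gene. There were 54, 72, 3 and 94 IGHA contigs in knockouts and 141, 313, 254 and 144 in controls. No knockout reached a control, and the ratio of geometric means, each number plus 1, was 0.174 (exact permutation p = 0.0286, the smallest possible, adjusted p = 0.2). Without knockout 3 that ratio was 0.36. Per 1000000 locus reads there were 989, 1740, 248 and 934 IGHA contigs in knockouts and 1568, 3500, 3939 and 1891 in controls. On this scale knockout 2 passed control 1, so the groups overlapped (log2 difference -1.67, exact permutation adjusted p = 0.2). Contigs with no constant gene numbered 289, 347, 137 and 285 in knockouts and 1427, 1194, 988 and 1366 in controls.

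As a share of all contigs, IGHA came to 15.6%, 17.2%, 2.13% and 24.7% in knockouts and 8.75%, 20.7%, 20.4% and 9.54% in controls. Their 95% Wilson intervals were 0.726% to 6.07% for knockout 3 and 20.6% to 29.2% for knockout 4, the outermost samples. The means were 14.9% ± 9.39 in knockouts and 14.9% ± 6.60 in controls (SD, n = 4 each; exact permutation p = 1), and without knockout 3 the difference of 0.0357 percentage points was 4.29. Each 1000 reads on the IGHA row went with 8.61, 14.9, 7.32 and 6.41 IGHA contigs in knockouts and 16.6, 26.4, 33.2 and 14.8 in controls. Only knockout 2 and control 4 touched across the groups on that scale, which was not tested.

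IGHA contigs were listed with more reads than contigs with no constant gene of the same sample. Whether 1 read could count for more than 1 contig could not be checked. The mean reads per IGHA contig were 7.98, 31.6, 1.67 and 15.6 in knockouts and 4.0, 5.32, 6.43 and 4.49 in controls. For contigs with no constant gene they were 2.96, 2.96, 1.39 and 3.79 in knockouts and 1.91, 2.2, 1.88 and 2.2 in controls. IGHA contigs were above the others in 8 of 8 samples, by a mean of 1.54 on the log2 scale or 2.90-fold (two-sided exact sign-flip permutation p = 0.00781, adjusted p = 0.0286 over 11 features). This is the smallest p that 8 samples allow, and with any 7 of them the adjusted p was at least 0.0573.

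Reads that span the CDR3, a stricter measure derived from the authors' expression score, gave a smaller gap. IGHA contigs averaged 6.67, 4.01, 1.67 and 8.49 spanning reads in knockouts and 3.49, 3.88, 3.15 and 3.58 in controls. Contigs with no constant gene averaged 2.64, 2.39, 1.39 and 2.77 in knockouts and 1.76, 1.88, 1.76 and 1.97 in controls. The gap was 0.96 on the log2 scale or 1.95-fold, again with IGHA above in 8 of 8 samples (exact sign-flip permutation p = 0.00781, adjusted p = 0.0286).

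IGHA contigs were also longer in 7 of 8 samples, all but knockout 3. Their median length was 124, 116.5, 75 and 127 bases in knockouts and 111, 122, 125 and 118 in controls, while that of contigs with no constant gene was 75 or 76 bases in every sample. The part of contig length in the read gaps was not tested.

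With medians over contigs in place of means, neither gap passed (adjusted p = 0.0573 for both), and 7 of 8 samples showed the direction. The other, knockout 3, was tied, with a median of 1 for both kinds of contig on both measures. Knockout 2 had 2272 reads on its IGHA contigs and 289 spanning reads, while its contigs with no constant gene had 1026 and 830. IGHA contigs took 33.3%, 68.9%, 2.55% and 57.5% of all contig reads in knockouts and 16.4%, 38.5%, 46.8% and 17.7% in controls. A read that counted for several contigs would enter these sums more than once. The groups overlapped (exact permutation p = 0.514, adjusted p = 0.72), and without knockout 3 the difference of 10.7 percentage points was 23.4.

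**Figure D2:**
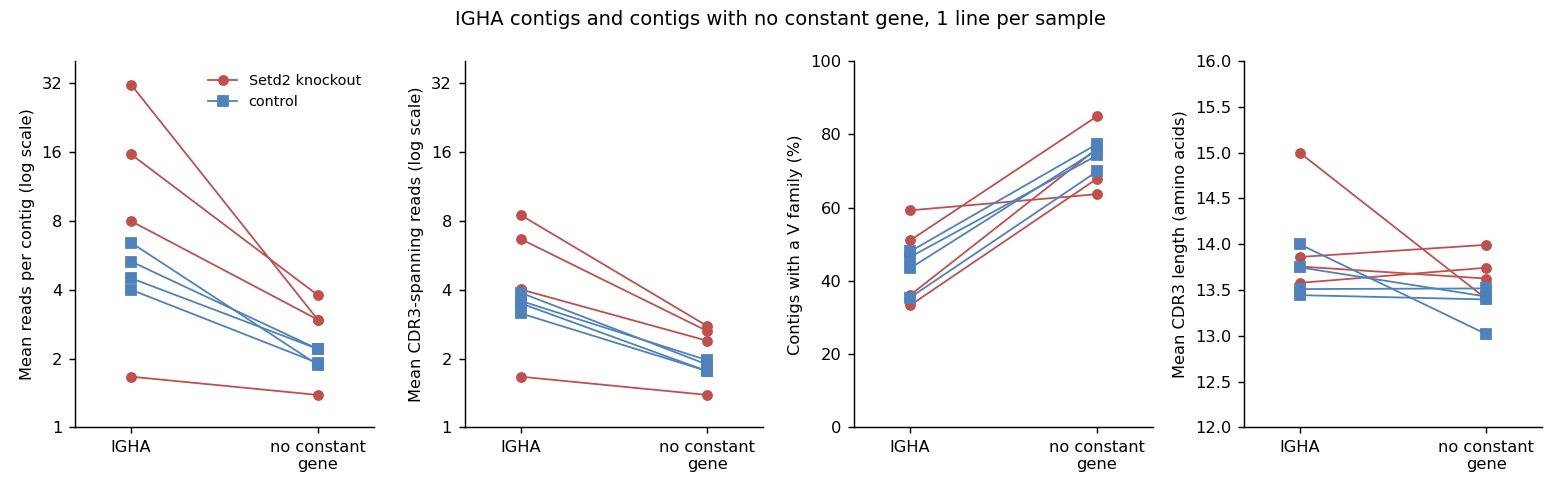
Mean reads, mean CDR3-spanning reads (both on log scales), percent with a V family and mean CDR3 length of IGHA contigs and contigs with no constant gene, with 1 line per sample. All 8 lines fall in the first 2 panels and rise in the third, while CDR3 length, on an axis that starts at 12, goes both ways.

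Among the IGHA contigs themselves, none of the 11 features passed between the genotypes, and no adjusted p was under 0.771. Mean reads were 14.2 ± 12.9 in knockouts and 5.06 ± 1.06 in controls (SD, n = 4 each; exact permutation p = 0.371 on the log2 scale, adjusted p = 0.771). The log2 difference of 0.85 was 1.67 without knockout 3 (exact permutation p = 0.0571, adjusted p = 0.314), 0.25 without knockout 2 and 0.061 with medians over contigs. Spanning reads averaged 5.21 ± 2.99 in knockouts and 3.53 ± 0.3 in controls (exact permutation p = 0.486, adjusted p = 0.771), and their log2 difference of 0.33 was 0.80 without knockout 3, 0.13 without knockout 1 and 0.013 without knockout 4. For all 11 features, the within-sample difference of IGHA from no constant gene did not differ detectably between the genotypes. For reads it was 1.79 ± 1.31 log2 units in knockouts and 1.28 ± 0.34 in controls (exact permutation p = 0.543, adjusted p = 0.971), and without knockout 3 the difference of 0.50 was 1.01.

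The IGHA contigs with the most reads came from knockout 4 and control 3. The leading contig of knockout 4, listed with IGHJ3, had 418 reads, of which 203 spanned its CDR3. It is shown with the CDR3 in capitals, from TGT, the codon of the conserved cysteine, to TGG, that of the tryptophan, and its IGHA letters differ from the exon in 1 base.
knockout 4, IGHJ3: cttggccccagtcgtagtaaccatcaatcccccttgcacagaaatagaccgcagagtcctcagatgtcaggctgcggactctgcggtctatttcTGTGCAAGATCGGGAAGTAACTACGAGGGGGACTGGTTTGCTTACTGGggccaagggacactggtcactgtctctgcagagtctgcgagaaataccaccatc
At its start, this contig also held another CDR3 with J letters, on the opposite strand. It thus joined letters of more than 1 rearrangement. Other IGHA contigs of knockout 4 had 155 reads with 62 spanning and 137 reads with 4 spanning. The CDR3 of the 155-read contig differed from that of the 418-read contig in 1 base. The 137-read contig, with IGHJ2, carried the IGHA letters on the strand opposite to its CDR3. On that strand, the letters before its CDR3 repeat the CDR3, J and IGHA letters printed above for the 418-read contig. Its IGHA letters thus followed the IGHJ3 rearrangement of that contig and not its own IGHJ2 one.
knockout 4, IGHJ2: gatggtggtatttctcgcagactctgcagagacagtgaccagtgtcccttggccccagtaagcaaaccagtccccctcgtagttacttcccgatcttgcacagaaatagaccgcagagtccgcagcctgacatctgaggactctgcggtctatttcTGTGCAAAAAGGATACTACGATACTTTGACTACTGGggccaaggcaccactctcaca
The leading 3 contigs of the controls all came from control 3, all used IGHJ4 and an IGHV1 gene, and had 105, 93 and 92 reads with 5, 8 and 6 spanning. In both groups, then, the contigs with the most reads included some with few reads across the CDR3.

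Every IGHA contig listed a J gene, but fewer listed a V family. A single V family was listed for 59.3%, 36.1%, 33.3% and 51.1% of IGHA contigs in knockouts and 35.5%, 43.5%, 48.0% and 46.5% in controls. In contigs with no constant gene it was listed for 63.7%, 76.1%, 67.9% and 84.9% in knockouts and 69.9%, 75.7%, 77.3% and 74.2% in controls. The IGHA share was lower in 8 of 8 samples, by a mean of 29.6 percentage points (a difference of -29.6; exact sign-flip permutation p = 0.00781, adjusted p = 0.0286). Among contigs with a complete CDR3 the difference was -4.56 and did not pass (adjusted p = 0.831). A J gene was listed for 100% of IGHA contigs and 48.9% of contigs with no constant gene. The sign-flip test cannot tell the assignment from the part of the transcript that a contig covers. A complete CDR3, from its cysteine to its tryptophan, was found in 685 of the IGHA contigs.

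IGHV1 was the leading V family of IGHA contigs, as it was of contigs with no constant gene. IGHV1, the large family of the distal part of the locus, made up 74 of 107 knockout IGHA contigs with a family (69.2%) and 270 of 375 control ones (72.0%). Of contigs with a family and no constant gene it made up 66.3% in knockouts and 68.9% in controls. Distal families (1 and 8) made up 78.3% ± 15.0 of IGHA contigs with a family in knockouts and 74.4% ± 5.08 in controls (SD, n = 4 each; exact permutation p = 0.743, adjusted p = 0.771). Knockout 3 enters that mean with 1 contig, and without it the knockout mean was 71.1% ± 5.06. Proximal families (2 and 5), which lie nearest the D segments, made up 8.53% ± 6.85 of them in knockouts and 10.7% ± 2.19 in controls (exact permutation p = 0.629, adjusted p = 0.771).

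The difference in CDR3 length between IGHA contigs and contigs with no constant gene did not pass. Their complete CDR3s averaged 13.9, 13.8, 15.0 and 13.6 amino acids in knockouts and 13.4, 13.7, 14.0 and 13.5 in controls, and the value of knockout 3 is a single contig. The mean difference from contigs with no constant gene was 0.346 amino acids (SD 0.624, n = 8; exact sign-flip permutation p = 0.172, adjusted p = 0.329). In each sample's table every CDR3 occurred on a single contig, so an IGHA contig could not share its exact CDR3 with another. A CDR3 at a distance of 1 base among contigs with no constant gene of the same sample was found for 132 of 685 complete IGHA CDR3s (19.3%), and for 502 of 3165 of the contigs with no constant gene themselves (15.9%). Of the 685, 15 occurred exactly in another sample.

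J use differed from sample to sample in both kinds of contig and in both directions. A J gene was listed for 2952 of the 6033 contigs with no constant gene (48.9%), and J shares of that kind are over the contigs that list one. In knockout 1, IGHJ3 made up 46.3% of IGHA contigs (95% Wilson interval 33.7 to 59.4) against 5.85% (3.30 to 10.2) of the 188 contigs with a J gene and no constant gene. In control 2, IGHJ4 made up 6.71% (4.43 to 10.04) of IGHA contigs against 47.7% (43.4 to 52.0) of 514 such contigs, and IGHJ2 58.1% (52.6 to 63.5) against 29.0% (25.2 to 33.1). Control 1 went the other way for IGHJ4, with 45.4% (37.4 to 53.6) against 17.2% (14.6 to 20.01) of 752. Here, as for the IGHA share of all contigs, the intervals treat contigs as independent draws. Many IGHA contigs shared an end, however. Of the 25 IGHJ3 ones of knockout 1, 13 stood on 1 shared end and 7 on another. The intervals are thus too narrow to read as differences in J use.

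No J gene passed over the 8 samples. For IGHJ2 the within-sample difference averaged 5.82 percentage points (SD 17.5, 6 of 8 samples higher; exact sign-flip permutation p = 0.375, adjusted p = 0.516), and for IGHJ4 it averaged -3.89 (SD 21.8; p = 0.641 by the same exact test, adjusted p = 0.705). Between genotypes, IGHJ2 made up 36.8% ± 15.3 of IGHA contigs in knockouts and 52.3% ± 10.8 in controls (SD, n = 4 each; exact permutation p = 0.171, adjusted p = 0.771).

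The letters past the J segment showed what the IGHA contigs have in common. Of 1075 IGHA contigs, 1057 ran 8 or more bases past the 31 bases of J that follow the CDR3, and 880 of these began with the first 8 bases of the IGHA exon. None began with those of another constant gene. In 232 the whole end was identical to the exon, and in 825 it differed in at least 1 base. The longest exact match to the exon was 28 bases.

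Of the 825 differing ends, 738 were shared letter for letter by contigs of the same sample with other CDR3s. That is 68.7% of all IGHA contigs on 45 distinct ends, and each of the 45 was found with a single J gene. The number of CDR3s on the largest end was 13, 23, 0 and 30 in knockouts and 55, 105, 80 and 40 in controls. In control 2 the largest end accounted for 105 of 182 IGHJ2 contigs, whose V genes came from 6 families and whose CDR3s were 8 to 19 amino acids long. In control 1 it accounted for 55 of 64 IGHJ4 contigs, with 5 families and lengths of 10 to 19 amino acids. IGHA contigs that differ in V family and CDR3 thus carried the same departures from the exon, as in the ends printed above.

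Contigs on shared differing ends made up 46.3%, 69.4%, 0% and 70.2% of IGHA contigs in knockouts and 40.4%, 85.3%, 72.4% and 61.8% in controls. Knockout 3 has only 3 contigs to show any, so its 0 is not a detectable difference at this depth. The groups overlapped.

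**Figure D3:**
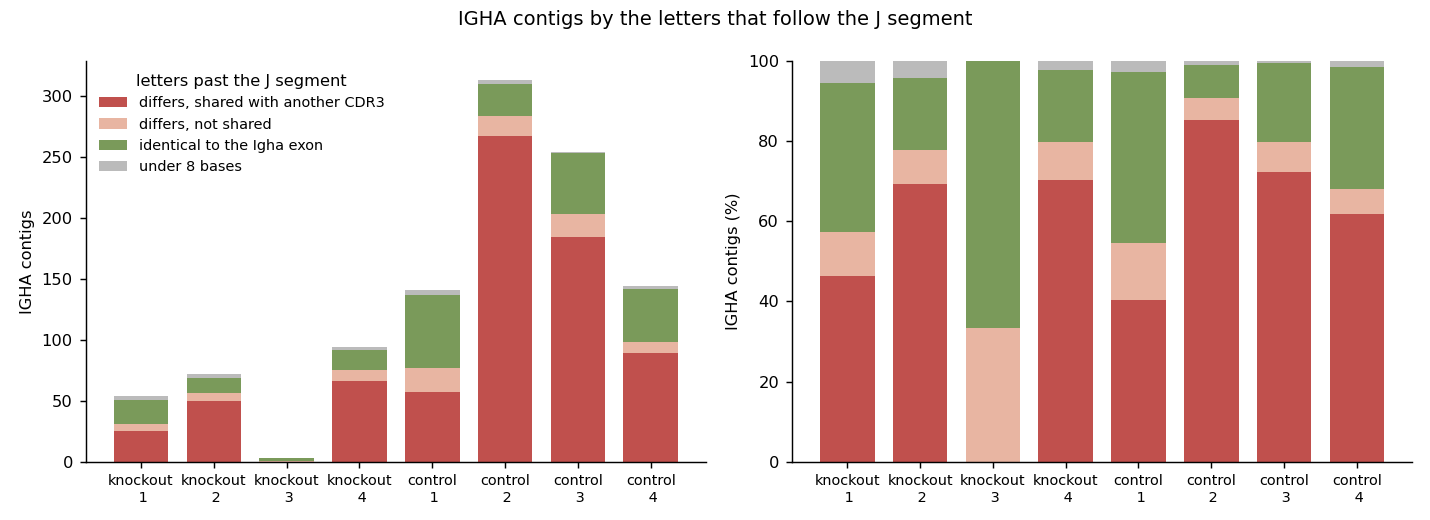
IGHA contigs per sample, as numbers and as percents, by whether the letters past the J segment differ from the IGHA exon and are shared with another CDR3, differ without being shared, are identical to the exon, or are under 8 bases. Shared differing ends are the largest class in knockouts 1, 2 and 4, at 46.3% to 70.2%, and in controls 2 to 4, at 61.8% to 85.3%.

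Some ends left the exon for letters of another kind. The 10 letters GATCGGAAGA were the most frequent run after an exact match of 16 or more bases, and they are part of the adapter of Illumina libraries. Searched on both strands, they stood in 229 of 1075 IGHA contigs (21.3%) and in 89 of 6033 contigs with no constant gene (1.48%). Controls 2 and 3 held most of them, with 110 of 313 and 108 of 254 IGHA contigs. The counts were 1, 2, 0 and 8 in knockouts and 0 in controls 1 and 4, where 22 and 42 contigs with no constant gene held them. The higher pooled share of IGHA contigs thus rested on controls 2 and 3. The search took the 10 letters exactly. In control 1 an IGHJ1 end shared by 2 CDR3s held all of them but the first, so its 0 is not an absence of adapter letters. Adapter letters were not the only ones. The printed knockout 2 end ran from the exon into letters that the leading contig of control 3 holds on its V side. The leading control contigs, all of control 3, also ended in such V letters, past their IGHA letters. The part of adapter or V letters in the assignments was not tested.

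IGHA letters were also common in contigs that had no constant gene listed. Of 851 such contigs that ran 8 or more bases past J, 470 (55.2%) began with the first 8 bases of the IGHA exon, 98 of 138 in knockouts and 372 of 713 in controls. The letters of IGHM stood there in 21, those shared by IGHG2B and IGHG2C in 47 and those of IGHG1 in 13, while 298 matched none of the constant genes. The IGHM exon begins otherwise.
IGHM exon 1: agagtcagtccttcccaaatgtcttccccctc
Among assigned contigs 1075 were IGHA, 53 IGHG and 5 IGHM. Contigs with letters of IGHA thus outnumbered those with letters of IGHM, while IGHM had more segment reads per kilobase than IGHA in 7 of 8 samples. In 6 IGHA contigs the first 12 bases of the exon stood only on the strand opposite to the CDR3, 5 of them in knockouts and 1 in a control.

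Leaving out the 738 contigs on shared differing ends kept 29, 22, 3 and 28 IGHA contigs in knockouts and 84, 46, 70 and 55 in controls. The gaps in reads and spanning reads over contigs with no constant gene were then 1.08 and 0.81 on the log2 scale and still passed (exact sign-flip permutation, adjusted p = 0.0286 for both). J use moved far more in some samples. In control 2 the IGHJ4 share of IGHA contigs became 45.7%, beside 47.7% of contigs with a J gene and no constant gene, and in control 1 it became 10.7%, beside 17.2%. The IGHJ3 share in knockout 1 became 17.2%, beside 5.85%, and the IGHJ2 share in control 2 became 34.8%, beside 29.0%.

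The share of IGHA contigs that would have to change J gene to match the contigs with a J gene and no constant gene was 40.4%, 26.0%, 21.5% and 7.45% in knockouts and 28.2%, 42.6%, 21.7% and 26.1% in controls. After leaving out the shared ends it was 16.6%, 26.0%, 21.5% and 20.8% in knockouts and 18.7%, 6.61%, 22.9% and 19.8% in controls. It was smaller without the shared ends in knockout 1 and in controls 1, 2 and 4, larger in knockout 4 and about the same in the others.

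**Figure D4:**
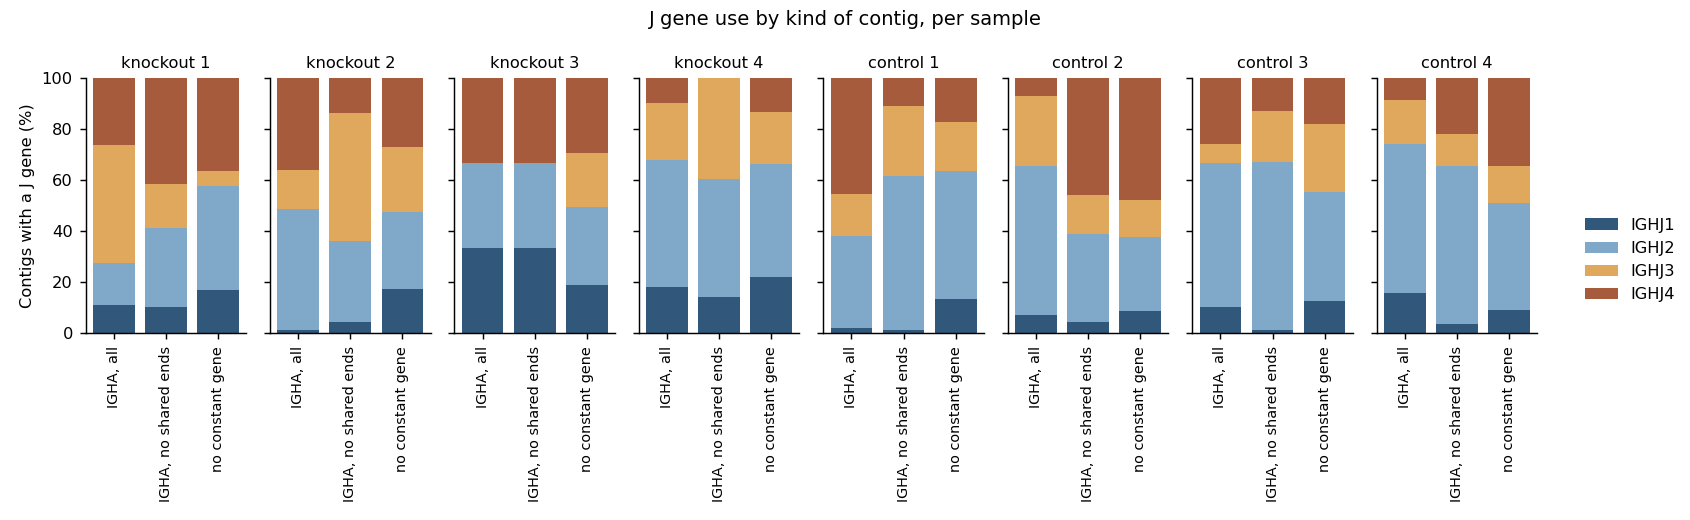
Percent of contigs with each J gene, out of those that list a J gene, per sample, for all IGHA contigs, for IGHA contigs without shared differing ends and for contigs with no constant gene. In control 2 IGHJ4 takes 6.71%, 45.7% and 47.7% of these, and knockout 3 has 3 IGHA contigs.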

How the data were processed

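Per the submitters' processing notes, reads were aligned with STAR 2.5.1 to mm10. Contigs were assembled with TRUST, which the series' design text names without a version. The authors deposited, per sample, a read count per heavy-chain and light-chain segment and a table of contigs with a read count, genes and CDR3. Their library size equalled the sum of the segment counts, and whole-library depth is unknown. The authors' expression score of each contig, multiplied by the CDR3 length in bases (at least 48), came out whole within 0.01 for 100% of contigs and is called CDR3-spanning reads.

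Segment counts with a total of at least 10 were tested with edgeR 4.0.16 (quasi-likelihood, locus totals, Benjamini-Hochberg) in R 4.3.3. It was checked on simulated counts. Per-sample values were compared by exact permutation over 70 arrangements, and kinds of contig within samples by exact sign flips over 256, with p adjusted over 7 readouts or 11 features. A call is an adjusted p under 0.05. Alternatives were other scalings, DESeq2 1.42.0, no count filter, the replicate number as a block, other units of counting and each sample left out; leaving out contigs on shared ends was added after seeing the data, as were the counts of shared ends and adapter letters and the measure of J-use difference. Reference letters and exons came from GENCODE M21. Named rows were IGHA, the other constant genes, the 5 rows most correlated with IGHA (log2 of percent plus 0.001, mean of at least 100 counts) and the 3 IGHA contigs with most reads per group. Members and lists were chosen with earlier results of these data known. Python 3.11.15, pandas 2.3.3, scipy 1.17.1 and matplotlib 3.10.9 were used.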

Additional observations from a re-analysis of the deposited data

Results flagged for a closer look

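In 36 groups of 4 samples examined, 3 values lay far from the other samples of their group, and chance gives about 1 in 20. All 3 belong to the IGHA contigs of control 1, so they are not independent of one another. Its share with a complete CDR3 was 57.4%, against 65.3% to 65.8% in the other controls. Its distal V share was 82.0%, against 71.3% to 72.8%. Its IGHJ2 share was 36.2%, against 56.7% to 58.3%. In control 1, 55 of 141 IGHA contigs stood on 1 shared end with IGHJ4.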

How the results depend on the processing

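With 7 samples the within-sample tests gave no adjusted p under 0.0573, and knockout 3, with the fewest locus reads, gives 3 IGHA contigs. No IGHA result that compares the genotypes passed under any setting. For the exact permutation tests this was partly fixed in advance. With a sample left out, the smallest p of 4 against 3 samples is 0.0571, so none could pass. With all 8, the contig numbers reached the smallest exact permutation p, 0.0286, and the adjusted p was still 0.2. Their failure to pass is thus no sign that the groups are alike. At other settings 51 values kept direction and call, 11 changed sign and 7 no longer passed; with samples left out these were 124, 12 and 24. The IGHA log2 fold change of -0.20 was 1.11 with TMM, 1.22 with DESeq2 and -0.36 with a replicate block; with single samples left out it ran from -0.42 to 0.088. Replicate numbers were not used as pairs, since the correlation of their deviations was over 0.1 in 3 of 4 pairs but 0.0192 in the other; in those 3 the control with the same number correlated best, a hint of pairing from the data that the labels do not give. Within numbers, knockouts were lower in IGHA per IGHM read in 4 of 4 pairs and higher in IGHA per IGHG read in 4 of 4, where the smallest exact sign-flip p would be 0.125. Rows called were 26, against 9 without a count filter, 21 with constant-row totals, 30 with the replicate block, 0 with TMM, 7 higher and 4 lower with DESeq2, and 0 to 40 with samples left out. The IGHA percent of contigs differed by 0.0357, against -2.03 among complete CDR3s, -1.90 among contigs reaching 8 bases past J, and -3.23 to 4.29 with samples left out. With samples left out, the difference ran from -2.98 to 0.746 for locus reads and from -9.86 to 0.159 for constant-region reads. For IGHA against no constant gene, the log2 gap in reads was 1.42 by medians, 1.72 in samples with at least 10 IGHA contigs and 1.27 to 1.72 with samples left out. That in spanning reads was 1.20, 1.06 and 0.87 to 1.06. The V family difference was -4.56 among complete CDR3s or distinct ones, -28.8 with at least 10 contigs and -33.1 to -28.1 with samples left out. None of these passed. The cause was fewer samples, except for medians and complete CDR3s. For medians the tie of knockout 3 left an exact sign-flip p of 0.0156, and for complete CDR3s the cause was not tested. The IGHJ4 difference of -3.89 was 4.27 among complete or distinct CDR3s and -8.48 to 1.40 with samples left out. The CDR3 length difference of 0.346 was -0.0935 without shared ends. Between genotypes, the proximal difference of -2.13 was 0.713 with at least 10 contigs and -4.41 to 0.713 with samples left out, and the distal difference of 3.89 was -3.34 and -3.34 to 8.20. The genotype difference of the read gaps, 0.50, was -0.44 by medians, -0.0053 without shared ends and -0.037 to 1.01 with samples left out. The causes of these reversals were not tested. The features given here were selected after the values were seen; the 21 other feature comparisons did not pass, and 9 of their 79 values at other settings and 19 of 168 with samples left out changed sign.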
